A study of Homo sapiens with 6 samples.

Results

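Interferon genes were examined in MDA-MB-231 cells carrying a short hairpin RNA against brachyury (MDA-MB-231 shBry, 3 libraries) and in MDA-MB-231 cells carrying a control hairpin (MDA-MB-231 shNC, 3 libraries). The group comprised 42 genes of 54259 in the count table, chosen by symbol from a list of pathway genes, by a rule that uses no measured value. The list itself was chosen with earlier results of these data known. The 42 genes were 7 sensors with their adaptors and kinase, 7 transcription factors, 4 receptor subunits and 24 effectors. MDA-MB-231 cells are a long-established line from a human breast cancer, and the hairpin was the only difference between the groups that the labels give. The comparison asks whether genes that detect foreign nucleic acid, carry the interferon signal and act on it differed between the brachyury hairpin and the control hairpin. The labels do not say whether the libraries came from separate cultures or how many clones made up each line, so p-values measure the spread between these libraries, which may be technical.

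Cells detect viral or misplaced nucleic acid with receptors in the cytosol and in endosomes. RIG-I and MDA5 signal through MAVS, cGAS signals through STING, and the kinase TBK1 then activates IRF3 and IRF7, which switch on interferon genes. Secreted type I interferon binds IFNAR1 and IFNAR2 and activates a complex that contains STAT2 and IRF9, whereas interferon gamma binds IFNGR1 and IFNGR2. Both routes raise large sets of interferon-stimulated genes, whose products block viral RNA, viral assembly or entry.

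Brachyury, listed under the symbol T, had 0 counts in all 6 libraries, so its own transcript could not show whether the hairpin lowered it. The libraries held between 19319411 and 22985371 counts. Where no read was counted, up to 3 counts remain possible, which is at most 0.155 CPM (the standard unit of counts relative to library size) in the smallest library, and this limit covers counting error only. All 6 markers of the line were detected in every library: VIM, CD44 and AXL lay between 482 and 3982 CPM, EGFR was not called, CAV1 was lower in shBry (log2 fold change -1.11, SE 0.09, edgeR adjusted p = 1.4e-07) and LAMB3 was higher (log2 fold change 1.79, SE 0.08, edgeR adjusted p = 5.2e-10). Of 5 genes listed as low in the line, ESR1, PGR and CDH1 had at most 2 counts, GATA3 had 201 to 313 counts, and EPCAM had 68 to 113 counts in shBry and 21 to 40 in shNC and was called higher (log2 fold change 1.47, SE 0.26, edgeR adjusted p = 0.00034). Of 12 leukocyte markers, PTPRC, TYROBP and MS4A1 were at 0 in all libraries, and the summed level of the list was 457 to 463 CPM in shBry and 484 to 503 CPM in shNC, nearly all of it from LCP1 and LAPTM5. Of 6 fibroblast markers, DCN was at 0 and the sum was 31.7 to 35.4 CPM in shBry and 29.9 to 35.1 CPM in shNC. Of 4 endothelial markers, the sum was 1.29 to 2.62 CPM in shBry and 3.40 to 4.63 CPM in shNC. The leukocyte and endothelial sums were lower in shBry, and their part in the interferon results was not tested. shBry replicate 2 stood apart in 37 of the 15277 genes tested, which were more than 2-fold above both other shBry libraries after 0.5 CPM was added to each value, against 10 to 15 genes in each other library. IFNGR2 and IRF7 were among these 37, and IRF7 was also more than 2-fold above the other shNC libraries in shNC replicate 2.

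Of the 42 interferon genes, 41 entered the test, and 20 of these (48.8%) passed it, with 10 higher in shBry and 10 lower. Over all 15277 genes tested, 32.4% passed, 17.1% higher and 15.2% lower. By the adjusted p alone, 24 of the 41 genes (58.5%) passed, against 53.3% of all genes. Genes were called at a Benjamini-Hochberg adjusted p below 0.05 in edgeR's quasi-likelihood test and a fold change above 1.5, and every fold change is that of shBry relative to shNC. The interferon genes moved in both directions: their median log2 fold change was 0.13, with a range from -1.76 for OAS1 to 1.78 for IRF7, and the median of all genes tested was 0.03. The median size of the change, whatever its sign, was 0.60 for the interferon genes and 0.42 for all genes. The groups did not overlap for 26 of the 41 genes (63.4%), 13 in each direction, against 59.5% of all genes. In these bulk samples, fewer cells with a transcript and less of it per cell cannot be told apart. By role, 2 of 7 sensors and adaptors, 2 of 7 factors, 3 of 4 receptor subunits and 13 of 23 tested effectors were called. The called factors and receptor subunits were all higher, and 9 of the 13 called effectors were lower. TLR3, IRF7 and OAS1 had under 10 counts in at least 1 library. The filter on low counts takes libraries of either group. TLR3 and IRF7 were over its limit in all shBry libraries and OAS1 in all shNC libraries, and each also in part of the other group. IFI27, which encodes a mitochondrial protein commonly used as an interferon marker, had 1 count in 1 shNC library and none elsewhere, and was not tested.

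**Figure D1:**
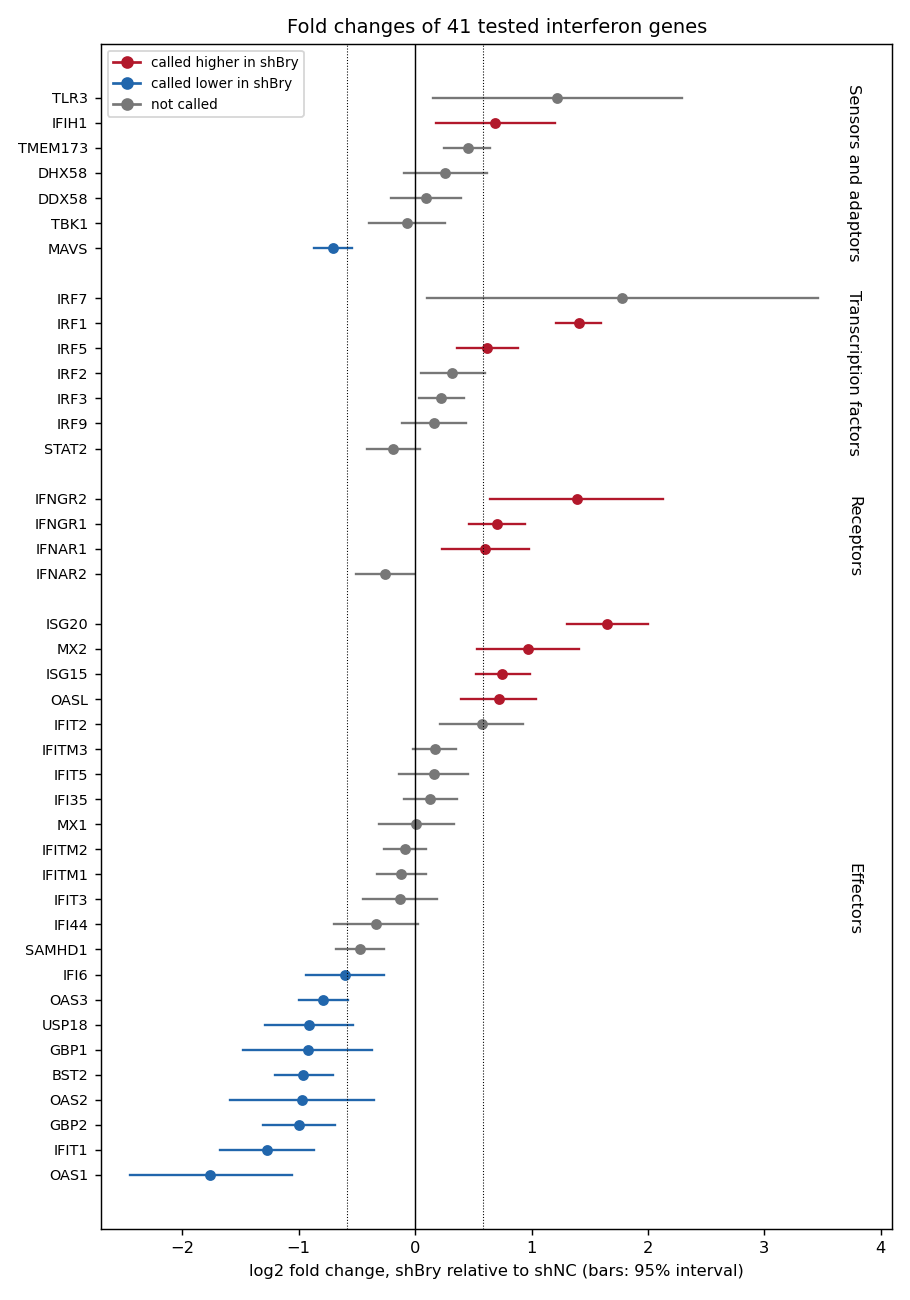
Log2 fold change (x axis) of the 41 tested interferon genes, grouped by role, with bars for the 95% interval from the edgeR fit. Dotted lines mark a fold change of 1.5, red marks genes called higher and blue genes called lower in shBry. Effectors spread from -1.76 (OAS1) to 1.65 (ISG20), with 9 called lower and 4 called higher.

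Among the sensors and adaptors, MAVS fell and IFIH1 was called higher, while the RIG-I gene did not differ by more than the replicate spread. MAVS, the mitochondrial adaptor on which RIG-I and MDA5 converge, had 101, 105 and 106 CPM in shBry replicates 1, 2 and 3 and 176, 169 and 163 CPM in shNC replicates 1, 2 and 3. Every shBry value lay below every shNC value (log2 fold change -0.71, SE 0.08, edgeR adjusted p = 3.4e-06). The gene lies on chromosome 20 from 3846799 to 3876123 of GRCh38. IFIH1, which encodes MDA5, a sensor of long double-stranded RNA, had 5.22, 4.55 and 2.84 CPM in shBry replicates 1, 2 and 3 and 2.57, 2.51 and 2.7 CPM in shNC. Its shBry values were all above its shNC values, but shBry replicate 3 lay just above them (log2 fold change 0.69, SE 0.24, edgeR adjusted p = 0.025). This call was lost with any single library left out except shBry replicate 3, with log2 fold changes between 0.51 and 0.91. Without shBry replicates 1 and 2 in turn, the edgeR adjusted p was 0.11 and 0.074, and without shNC replicates 1, 2 and 3 in turn it was 0.062, 0.078 and 0.056.

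TMEM173, which encodes STING, had 113, 102 and 114 CPM in shBry replicates 1, 2 and 3 and 87.5, 81.9 and 71.8 CPM in shNC. The groups did not overlap, and the change stayed under the fold limit (log2 fold change 0.45, SE 0.09, edgeR adjusted p = 0.00096). DDX58, which encodes RIG-I, had 19.4, 22.1 and 22.1 CPM in shBry replicates 1, 2 and 3 and 17.1, 18.6 and 24.2 CPM in shNC, and shNC replicate 3 was above every shBry library. Its log2 fold change was 0.09 (95% interval -0.21 to 0.39, edgeR adjusted p = 0.61). DHX58, which encodes LGP2, a regulator of both RNA sensors, had 6.35, 7.54 and 7.8 CPM in shBry replicates 1, 2 and 3 and 6.37, 6.57 and 5.21 CPM in shNC, with a log2 fold change of 0.26 (95% interval -0.10 to 0.62, edgeR adjusted p = 0.21). TBK1, the kinase that activates IRF3, had 15.3, 17 and 11.2 CPM in shBry replicates 1, 2 and 3 and 14.9, 14.9 and 15.8 CPM in shNC, and shBry held both the highest and the lowest value. Its log2 fold change was -0.07 (95% interval -0.40 to 0.26, edgeR adjusted p = 0.72), and an antisense gene overlaps 14.7% of its exon bases. TLR3, the endosomal receptor of double-stranded RNA, was close to the detection limit with 0.754, 1.77 and 0.576 CPM in shBry replicates 1, 2 and 3 and 0.229, 0.473 and 0.651 CPM in shNC. shBry replicate 2 was far above the rest, shBry replicate 1 lay just above the shNC values and shBry replicate 3 within them. The log2 fold change was 1.22 (95% interval 0.15 to 2.29, edgeR adjusted p = 0.053), and 0.52 without shBry replicate 2 (edgeR adjusted p = 0.4). Without shBry replicate 1 or 3 it was 1.39 or 1.52 and passed the test (edgeR adjusted p = 0.032 and 0.022).

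IRF1 and IRF5 were the transcription factors called, both higher in shBry. IRF1, a factor induced by interferon gamma and by inflammatory signals that acts on many interferon-stimulated genes, had 67.9, 62.7 and 66.9 CPM in shBry replicates 1, 2 and 3 and 24.7, 24.4 and 25.4 CPM in shNC. All shBry values were more than 2-fold above all shNC values, and the rise was 2.65-fold (log2 fold change 1.41, SE 0.09, edgeR adjusted p = 2e-08). With each library left out in turn, the log2 fold change stayed between 1.38 and 1.40. IRF1 lies on chromosome 5 from 132481609 to 132490798, and C5orf56 on the other strand overlaps 22% of its exon bases. C5orf56 had 9 to 28 counts per library, against 507 to 1509 for IRF1, but how reads on the shared bases were assigned is not known. IRF5, a factor best known from myeloid cells and B cells, had 27.9, 25.6 and 25.2 CPM in shBry replicates 1, 2 and 3 and 16.2, 19.3 and 15.7 CPM in shNC. It rose just past the fold limit, with no overlap between groups (log2 fold change 0.62, SE 0.12, edgeR adjusted p = 0.00061). Without shBry replicate 1, shNC replicate 1 or shNC replicate 3, the log2 fold change was 0.57, 0.58 or 0.55 and IRF5 was no longer called, since it fell under the fold limit.

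The factors that carry the first wave of interferon induction and the type I signal were not called. IRF3, which switches on interferon genes, had 175, 143 and 156 CPM in shBry replicates 1, 2 and 3 and 129, 146 and 131 CPM in shNC, with a log2 fold change of 0.22 (95% interval 0.03 to 0.42, edgeR adjusted p = 0.052). BCL2L12 on the other strand overlaps 19.3% of the IRF3 exon bases and was itself lower in shBry (log2 fold change -1.18, edgeR adjusted p = 1.3e-07), and without a known strand setting the reads of the pair cannot be told apart. IRF2, often a repressor of IRF1 targets, had 15.9, 16 and 19.1 CPM in shBry replicates 1, 2 and 3 and 13, 14.4 and 13.5 CPM in shNC. Its groups did not overlap, and its log2 fold change was 0.32 (95% interval 0.05 to 0.60, edgeR adjusted p = 0.047), under the fold limit.

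STAT2, part of the type I interferon complex, had 38.7, 42.1 and 42.8 CPM in shBry replicates 1, 2 and 3 and 46.1, 52.4 and 41.9 CPM in shNC, with a log2 fold change of -0.19 (95% interval -0.41 to 0.04, edgeR adjusted p = 0.15). IRF9, its DNA-binding partner, had 28.8, 23.8 and 28.7 CPM in shBry replicates 1, 2 and 3 and 25.6, 26.6 and 20.3 CPM in shNC, with a log2 fold change of 0.16 (95% interval -0.11 to 0.44, edgeR adjusted p = 0.31). Another annotated gene on the same strand overlaps 48.4% of the IRF9 exon bases. The STAT2 and IRF9 values overlapped between groups. IRF7, the factor that amplifies the interferon response, had 0.7, 2.06 and 0.488 CPM in shBry replicates 1, 2 and 3 and 0.0916, 0.851 and 0 CPM in shNC. These values correspond to 11 to 49 counts in shBry and 0 to 18 in shNC, and replicate 2 was the highest library of either group. The log2 fold change was 1.78 (95% interval 0.10 to 3.46, edgeR adjusted p = 0.069), and it depended on single libraries, with 0.84 without shBry replicate 2 and 4.36 without shNC replicate 2 (edgeR adjusted p = 0.41 and 0.0031). IRF7 was also called without shBry replicate 1 (log2 fold change 2.0, edgeR adjusted p = 0.036) and without shBry replicate 3 (2.14, edgeR adjusted p = 0.038).

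Both subunits of the interferon gamma receptor were higher in shBry. IFNGR1, the ligand-binding chain, had 34.4, 39.4 and 37.2 CPM in shBry replicates 1, 2 and 3 and 20.8, 22.4 and 25.3 CPM in shNC, with all shBry libraries above all shNC libraries (log2 fold change 0.70, SE 0.11, edgeR adjusted p = 0.00012). IFNGR2, the signaling chain, had 9.42, 29 and 9.8 CPM in shBry replicates 1, 2 and 3 and 7.19, 6.38 and 4.96 CPM in shNC (log2 fold change 1.39, SE 0.35, edgeR adjusted p = 0.0039). shBry replicate 2 was far above the other shBry libraries, and all 3 were above shNC. Without shBry replicate 2 the log2 fold change of IFNGR2 was 0.60, still called (edgeR adjusted p = 0.011). TMEM50B overlaps 12.8% of the IFNGR2 exon bases from the other strand and had 7 to 17 counts per library. Without a known strand setting, these counts do not show how reads on the shared bases were assigned.

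The fold changes of the type I receptor subunits had opposite signs, and 1 of the 2 was called. IFNAR1 had 36.5, 48.8 and 35.6 CPM in shBry replicates 1, 2 and 3 and 20.6, 24 and 35.3 CPM in shNC, and the lowest shBry value lay just above the highest shNC value (log2 fold change 0.60, SE 0.18, edgeR adjusted p = 0.0099). This call was lost without shBry replicate 2, shNC replicate 1 or shNC replicate 2. The log2 fold changes were then 0.40, 0.45 and 0.53, all under the fold limit (edgeR adjusted p = 0.06, 0.05 and 0.049). IFNAR2 had 19.3, 19.3 and 21.8 CPM in shBry replicates 1, 2 and 3 and 21.8, 25 and 25.6 CPM in shNC, with the highest shBry value just below the lowest shNC value. Its log2 fold change was -0.26 (95% interval -0.51 to -0.01, edgeR adjusted p = 0.074), and another gene on the same strand overlaps 83.2% of its exon bases. The 3 receptor genes IFNAR2, IFNAR1 and IFNGR2 lie on chromosome 21 of GRCh38 between 33229901 and 33479348, together with IL10RB, which encodes a shared receptor chain of interferon lambda and interleukin 10. IL10RB had a log2 fold change of 0.26 (95% interval 0.06 to 0.46, edgeR adjusted p = 0.029). Other annotated genes overlap 38.1% of the IL10RB exon bases, chiefly the same gene that overlaps IFNAR2.

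The effectors, of which 9 were called lower and 4 higher, are given by family.

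The IFIT genes encode proteins that bind foreign RNA ends and block its translation. The 4 listed here lie close together on chromosome 10 between 89283694 and 89421001, in the order IFIT2, IFIT3, IFIT1 and IFIT5. IFIT1 had 4.2, 3.67 and 6.25 CPM in shBry replicates 1, 2 and 3 and 11.5, 11.4 and 11.3 CPM in shNC. The shNC values were close together, and every shBry value was well below them (log2 fold change -1.27, SE 0.19, edgeR adjusted p = 5.9e-05). IFIT2 had 10.7, 7.84 and 7.89 CPM in shBry replicates 1, 2 and 3 and 5.73, 5.58 and 6.41 CPM in shNC, with all shBry values above all shNC values. Its fold change of 1.485 lay just under the limit (log2 fold change 0.57, SE 0.17, edgeR adjusted p = 0.011), and it passed the limit without shBry replicate 2, shBry replicate 3 or shNC replicate 3. IFIT3 had a log2 fold change of -0.13 (95% interval -0.45 to 0.19, edgeR adjusted p = 0.49), and IFIT5 had 0.16 (95% interval -0.14 to 0.45, edgeR adjusted p = 0.35). Thus 1 of these 4 genes was called lower and 3 were not called. The ratio of IFIT2 to IFIT1 was 2.54, 2.14 and 1.26 in shBry replicates 1, 2 and 3 and 0.498, 0.488 and 0.569 in shNC. The groups did not overlap, which had to follow from the values of the single genes. Per length, IFIT2 had 2.15 ± 0.393 RPKM (CPM divided by exon length in kilobases, SD, n = 3) and IFIT1 1.02 ± 0.296 in shBry, and 1.44 ± 0.108 and 2.47 ± 0.0259 in shNC.

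The oligoadenylate synthetase genes encode enzymes that sense double-stranded RNA and activate RNase L. OAS1, OAS3 and OAS2 lie in this order on chromosome 12 between 112906777 and 113011723, and all 3 were lower in shBry. OAS1 had 0.646, 0.843 and 0.399 CPM in shBry replicates 1, 2 and 3 and 1.97, 2.36 and 2.1 CPM in shNC, which are 9 to 20 counts in shBry and 42 to 50 counts in shNC, a 3.38-fold fall (log2 fold change -1.76, SE 0.32, edgeR adjusted p = 0.0004). OAS1 was over the limit of the filter on low counts in all shNC libraries, where it is high, and in part of shBry. Its direction was thus not fully independent of the filter. OAS3, the best measured of the 3, had 26.5, 27.4 and 26.2 CPM in shBry replicates 1, 2 and 3 and 49.9, 43.7 and 44.7 CPM in shNC, with a clear gap between groups (log2 fold change -0.79, SE 0.10, edgeR adjusted p = 1.3e-05). OAS2 had 1.18, 1.35 and 1.02 CPM in shBry replicates 1, 2 and 3 and 2.89, 2.46 and 1.6 CPM in shNC. The OAS2 groups did not overlap (log2 fold change -0.97, SE 0.29, edgeR adjusted p = 0.012), but without shNC replicate 1 the log2 fold change was -0.78 and OAS2 was not called (edgeR adjusted p = 0.074).

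OASL, a paralog without the enzyme activity that acts with RIG-I, lies elsewhere on the chromosome, from 121019111 to 121039242, and moved the other way. It had 18.6, 14.4 and 13.6 CPM in shBry replicates 1, 2 and 3 and 9.39, 10.4 and 8.46 CPM in shNC, with all shBry values above all shNC values (log2 fold change 0.72, SE 0.15, edgeR adjusted p = 0.0013). Without shBry replicate 1, its log2 fold change was 0.57, just under the fold limit. The ratio of OASL to OAS3 was 0.701, 0.527 and 0.519 in shBry and 0.188, 0.239 and 0.189 in shNC, and that of OASL to OAS1 was 28.8, 17.1 and 34.1 in shBry and 4.77, 4.42 and 4.02 in shNC.

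The MX genes encode GTPases that trap viral capsids and nucleoproteins, and are neighbours on chromosome 21 between 41361943 and 41459214. MX2 had 4.58, 5.14 and 4.52 CPM in shBry replicates 1, 2 and 3 and 2.89, 2.27 and 2.1 CPM in shNC, 1.96-fold higher in shBry with no overlap (log2 fold change 0.97, SE 0.20, edgeR adjusted p = 0.0011). MX1, a classical marker of the type I interferon response, had 8.56, 8.09 and 7.8 CPM in shBry replicates 1, 2 and 3 and 8.8, 8.37 and 7.11 CPM in shNC. Its groups overlapped throughout, and its log2 fold change was 0.01 (95% interval -0.31 to 0.33, edgeR adjusted p = 0.97), with a sign that turned with the scaling of the libraries. The ratio of MX2 to MX1 was 0.535, 0.635 and 0.58 in shBry and 0.328, 0.271 and 0.296 in shNC.

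**Figure D2:**
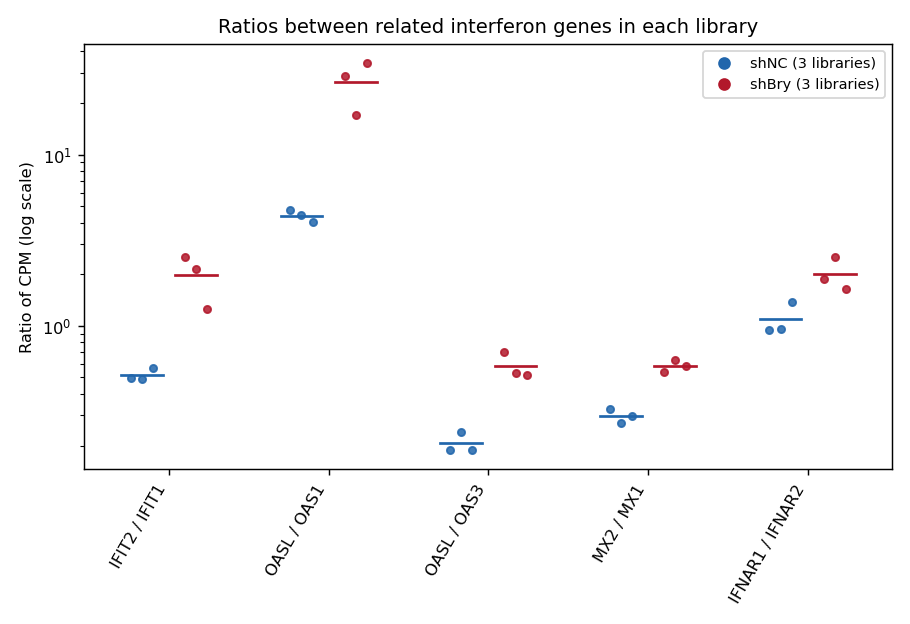
Ratio of CPM values between related interferon genes (log scale) in each library, with points for the 3 libraries of a group and lines for their mean. The IFIT2 to IFIT1 ratio lay between 1.26 and 2.54 in shBry and between 0.488 and 0.569 in shNC, and for each of the 5 ratios, IFNAR1 to IFNAR2 among them, the groups did not overlap. Except for MX2 to MX1, this had to follow from the single genes. Their numerators were higher and their denominators lower in shBry, each without overlap.

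The ratios were chosen after the values were seen and carry no test. ISG20 and ISG15 both rose. ISG20, an exonuclease that degrades viral RNA, had 26.8, 27 and 23.5 CPM in shBry replicates 1, 2 and 3 and 8.84, 9.74 and 6.01 CPM in shNC, a 3.14-fold rise that was the largest among the effectors (log2 fold change 1.65, SE 0.16, edgeR adjusted p = 1.3e-06). It lies on chromosome 15 from 88636153 to 88656483. ISG15, a ubiquitin-like protein that is attached to other proteins and also secreted, had 115, 85.7 and 102 CPM in shBry replicates 1, 2 and 3 and 60.8, 64.4 and 54.2 CPM in shNC. The lowest shBry value was well above the highest shNC value (log2 fold change 0.75, SE 0.11, edgeR adjusted p = 5e-05). USP18, the protease that removes ISG15 and also damps signaling from the type I receptor, went the other way with 3.66, 2.99 and 3.9 CPM in shBry replicates 1, 2 and 3 and 6.87, 6.48 and 6.46 CPM in shNC. All shBry values lay below all shNC values (log2 fold change -0.91, SE 0.18, edgeR adjusted p = 0.00064). Of the stretches of 50 bases in the USP18 transcript, 23.4% also occur in other genes, chiefly USP41, which had at most 2 counts in any library.

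The remaining effectors that were called were all lower in shBry. BST2, also called tetherin, which holds budding virus at the cell surface, had 13.8, 13.5 and 15.1 CPM in shBry replicates 1, 2 and 3 and 26.9, 28.9 and 26.6 CPM in shNC, 1.94-fold lower with no overlap (log2 fold change -0.96, SE 0.11, edgeR adjusted p = 8e-06). GBP2, a guanylate-binding protein induced by interferon gamma, had 6.57, 8.94 and 8.07 CPM in shBry replicates 1, 2 and 3 and 16.8, 15 and 15.5 CPM in shNC, lower with no overlap (log2 fold change -1.0, SE 0.15, edgeR adjusted p = 5.3e-05). GBP1, its neighbour on chromosome 1, had 1.02, 1.39 and 1.33 CPM in shBry replicates 1, 2 and 3 and 2.25, 2.17 and 2.75 CPM in shNC, with no overlap (log2 fold change -0.92, SE 0.26, edgeR adjusted p = 0.0081). Of the stretches of 50 bases in GBP1 and GBP2 transcripts, 9.62% and 10.2% also occur in other genes. IFI6, a small protein of the endoplasmic reticulum and mitochondria, had 6.62, 5.65 and 6.38 CPM in shBry replicates 1, 2 and 3 and 9.39, 10.6 and 8.26 CPM in shNC (log2 fold change -0.60, SE 0.16, edgeR adjusted p = 0.0052). Without shBry replicate 2 or shNC replicate 2, its log2 fold change was -0.57 or -0.52 and IFI6 was not called, since it fell under the fold limit.

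**Figure D3:**
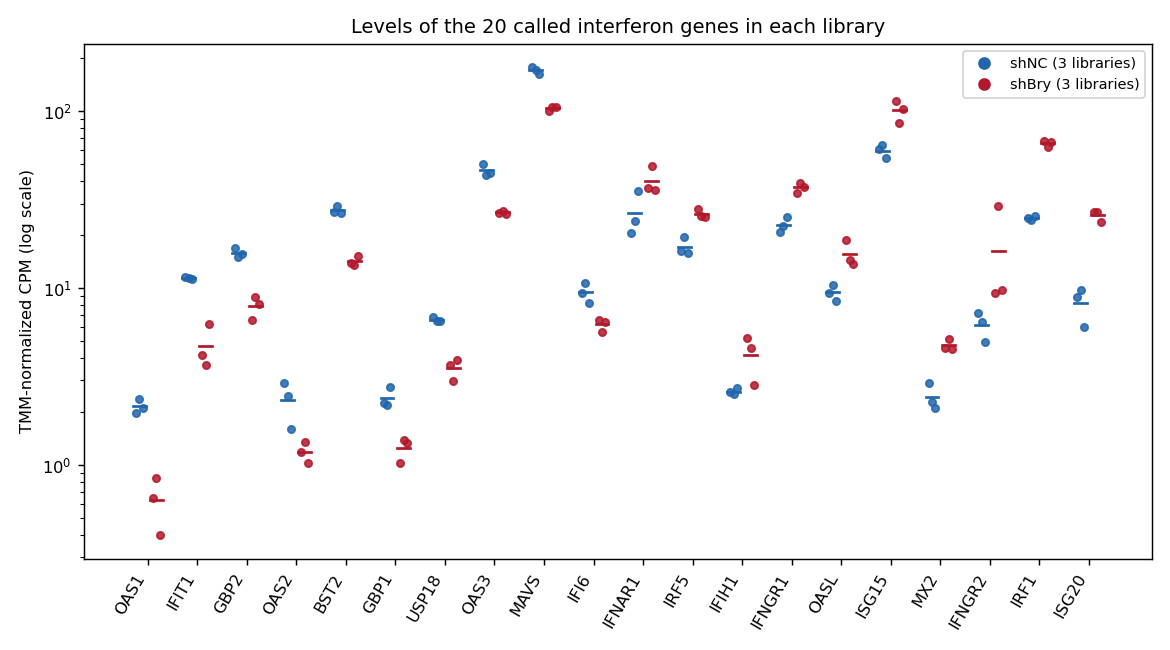
TMM-normalized CPM (log scale) of the 20 differentially expressed interferon genes in each library, ordered from the lowest to the highest log2 fold change. Points are libraries and lines are group means. The shBry and shNC points do not overlap for any of the 20 genes, and the single high shBry point of IFNGR2 is replicate 2 at 29 CPM. These genes were picked by the test on the same libraries, so their separation is no further support. Of all 15277 genes tested, 59.5% did not overlap.

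Of the effectors not yet described, none was called. SAMHD1, which depletes the nucleotides that viral reverse transcription needs, went from 63.7 ± 6 CPM in shNC to 45.8 ± 1.75 CPM in shBry (SD, n = 3), with no overlap but under the fold limit (log2 fold change -0.47, SE 0.09, edgeR adjusted p = 0.00075). IFI44 had a log2 fold change of -0.34 (95% interval -0.70 to 0.02, edgeR adjusted p = 0.1) and IFI35 had 0.13 (95% interval -0.10 to 0.36, edgeR adjusted p = 0.32). The IFITM proteins block the fusion of viruses with the cell membrane, and their genes had log2 fold changes of -0.12 (95% interval -0.33 to 0.09, edgeR adjusted p = 0.31) for IFITM1, -0.09 (95% interval -0.27 to 0.09, edgeR adjusted p = 0.4) for IFITM2 and 0.17 (95% interval -0.02 to 0.35, edgeR adjusted p = 0.11) for IFITM3. Their values overlapped between the groups. The 3 genes share sequence: 32%, 34.1% and 17.4% of the stretches of 50 bases in their transcripts occur in other genes. How the counting treated reads from these stretches is not known.

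Levels were compared between genes as RPKM, with exon lengths from GENCODE 29. The IFITM genes and ISG15 were the most abundant interferon genes in both groups. In shNC, IFITM3 had 253 ± 10.8 RPKM (SD, n = 3), IFITM2 had 104 ± 2.57, ISG15 had 63.5 ± 5.51 and IFITM1 had 58.2 ± 4.2, and the last 2 did not differ beyond their spread. In shBry, IFITM3 had 283 ± 26 RPKM, ISG15 had 107 ± 15.4, IFITM2 had 97.5 ± 9.12 and IFITM1 had 53.6 ± 4.84, and here ISG15 and IFITM2 did not differ beyond their spread. IRF3 followed in shNC at 35.7 ± 2.34 RPKM, then BST2 at 24.6 ± 1.11 and TMEM173 at 20.9 ± 2.06. IRF1 had 3.18 ± 0.0677 RPKM in shNC and 8.44 ± 0.355 in shBry. OAS1 at 0.434 ± 0.0406 RPKM, OAS2 at 0.37 ± 0.104 and MX2 at 0.185 ± 0.0317 were among the lowest in shNC, and OAS1 and OAS2 did not differ beyond their spread. TLR3 and IFI27 had lower means than these. IRF7 at 0.12 ± 0.178 RPKM did not differ from MX2 or TLR3 beyond its spread.

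**Figure D4:**
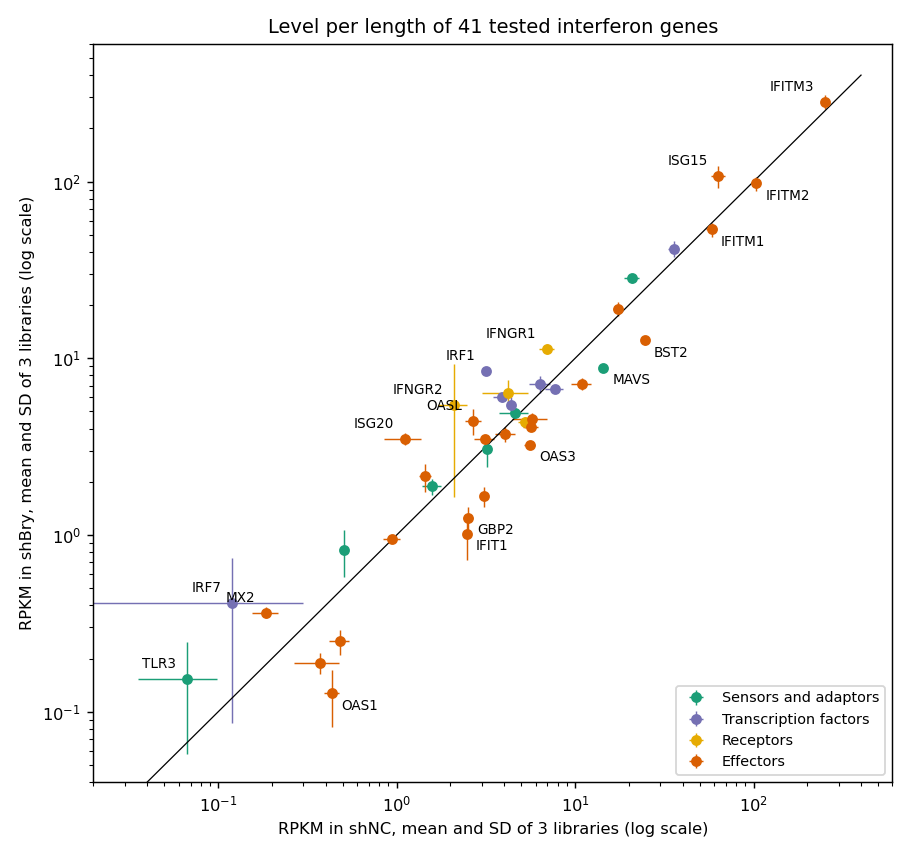
RPKM in shNC (x axis) and in shBry (y axis) of the 41 tested interferon genes, both on log scales, with the mean and SD of 3 libraries and the line of equal levels. A bar that would reach below 0 runs to the edge of the plot. IFITM3, at 253 RPKM in shNC and 283 in shBry, sits at the top, and OAS1, IFIT1 and BST2 sit below the line while ISG20 and IRF1 sit above it.

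Promoter sequences of the interferon genes were searched for the letters of their best known control elements. The interferon complex and the IRF proteins bind the interferon-stimulated response element, searched here on both strands as GAAA, any 2 bases and a second GAAA. Genes that respond to interferon gamma often hold the gamma-activated site, searched as TTCNNNGAA, which reads the same on both strands. RefSeq promoters of GRCh38.p14, from 250 bases before to 50 bases after each annotated start, were found for 29 of the 42 genes, and overlapping matches were counted separately. No entry was matched for DHX58, TMEM173, IRF2, IRF3, IRF7, IFNAR2, IFIT2, IFITM2, OAS2, OASL, MX2, GBP2 and USP18. At least 1 promoter held the response element letters in 16 of these 29 genes (55.2%), against 4.38% of 27305 genes in the table. They were present in 14 of 17 effectors and 2 of 5 sensors and adaptors, and in none of 4 factors and 3 receptor subunits. Among called effectors, the letters were present in 5 of 6 genes that were lower in shBry, all but OAS1, and in both of the genes that were higher. They were also present in 6 of 8 effectors that were not called. The letters of the gamma-activated site were present in 9 of the 29 genes (31%), against 9.38% of all genes. These matches describe letters and not binding.

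The 150 bases that end just before the RefSeq start are shown for 4 effectors that fell, 2 effectors that rose and IRF1. They run 5′ to 3′ on the gene's own strand. These effectors set the response element letters beside changes of opposite sign, and IRF1 has only gamma-activated site letters. Capitals mark complete matches to either set of letters, and runs of capitals longer than 10 bases are overlapping matches.
IFIT1, chr10:89392473-89392622, plus strand: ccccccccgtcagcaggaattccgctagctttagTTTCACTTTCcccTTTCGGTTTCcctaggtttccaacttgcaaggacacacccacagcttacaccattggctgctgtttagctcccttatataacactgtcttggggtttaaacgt
IFI6, chr1:27672193-27672342, minus strand: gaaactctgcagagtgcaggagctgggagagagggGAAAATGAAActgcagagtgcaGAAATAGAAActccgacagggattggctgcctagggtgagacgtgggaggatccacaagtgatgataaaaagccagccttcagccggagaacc
BST2, chr19:17405631-17405780, minus strand: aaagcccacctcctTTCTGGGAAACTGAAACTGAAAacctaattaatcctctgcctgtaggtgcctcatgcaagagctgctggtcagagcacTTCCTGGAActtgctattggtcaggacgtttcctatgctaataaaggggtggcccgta
GBP1, chr1:89065209-89065358, minus strand: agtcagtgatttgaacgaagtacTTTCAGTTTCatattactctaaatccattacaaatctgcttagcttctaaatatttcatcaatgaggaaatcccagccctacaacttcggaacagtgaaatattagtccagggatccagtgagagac
ISG15, chr1:1013347-1013496, plus strand: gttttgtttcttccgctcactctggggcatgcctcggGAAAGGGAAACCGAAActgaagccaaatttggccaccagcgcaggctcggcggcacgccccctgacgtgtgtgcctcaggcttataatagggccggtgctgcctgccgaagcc
ISG20, chr15:88638866-88639015, plus strand: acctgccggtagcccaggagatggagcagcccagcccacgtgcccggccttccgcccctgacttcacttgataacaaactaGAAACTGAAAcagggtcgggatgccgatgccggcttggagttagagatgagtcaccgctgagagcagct
IRF1, chr5:132490774-132490923, minus strand: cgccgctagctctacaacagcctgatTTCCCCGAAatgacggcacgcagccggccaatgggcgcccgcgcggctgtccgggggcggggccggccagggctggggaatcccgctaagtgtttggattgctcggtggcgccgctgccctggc
IFIT1, which fell, has the response element letters at 116 and 103 bases before its start, and ISG15, which rose, has them at 113 and 107 bases before its start. ISG20 has 1 match, 69 bases before its start. IFI6 has 2 complete matches in the stretch shown, and 1 more, 156 bases before its start, ends in the first bases shown, which stay in lower case. BST2 has 2 matches to the response element, 130 and 124 bases before its start, and 2 to the gamma-activated site. IRF1 has no match to the response element and 1 to the gamma-activated site, 124 bases before its start.

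A further list of 72 genes of interferon production, signaling and response, which contains none of the 42, was examined in the same fit. Of these, 52 were tested and 14 (26.9%, against 32.4% of all genes) were called, 11 higher and 3 lower in shBry, with a median log2 fold change of 0.14. Of the interferons on the list, IFNB1, IFNL2, IFNL3 and IFNE had 0 counts in all libraries, and IFNL1 had 1 count in shBry replicate 3. CXCL10, which encodes a chemokine, had 0 counts, and CMPK2 had 1 count in 1 library. RSAD2, which encodes viperin, had 7, 7 and 3 counts in shBry replicates 1, 2 and 3 and 0 in shNC, and CXCL11 had at most 3 counts. MB21D1, which encodes cGAS, was called higher in shBry (log2 fold change 1.05, SE 0.10, edgeR adjusted p = 6.5e-07). IFI16, another DNA sensor on the list, was not called (log2 fold change 0.12, SE 0.15, edgeR adjusted p = 0.54), and the DNA sensor AIM2 had at most 4 counts.

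GBP5, a guanylate-binding gene close to GBP1 and GBP2 on chromosome 1, had 15, 11 and 12 counts in shBry replicates 1, 2 and 3 and 1, 2 and 1 in shNC (log2 fold change 3.11, SE 0.63, edgeR adjusted p = 0.00088). GBP5 passed the filter only through shBry, with no shNC library over its limit, so it had to be higher there. SOCS1, with 6 to 16 counts in shNC, passed mainly through shBry, so its direction was not fully independent of the filter. SOCS1, an inhibitor of JAK kinases, had 1.51, 2.11 and 1.55 CPM in shBry replicates 1, 2 and 3 and 0.733, 0.284 and 0.401 CPM in shNC, all higher in shBry (log2 fold change 1.85, SE 0.38, edgeR adjusted p = 0.00087). RBCK1, a subunit of the linear ubiquitin ligase complex, had 315, 277 and 290.2 CPM in shBry replicates 1, 2 and 3 and 118, 117 and 102 CPM in shNC, more than 2-fold higher in every shBry library (log2 fold change 1.39, SE 0.09, edgeR adjusted p = 1.4e-08).

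The 3 genes called lower were NLRC5, TRIM14 and ZC3HAV1. NLRC5, a regulator of MHC class I genes, had 11.9, 15 and 12.3 CPM in shBry replicates 1, 2 and 3 and 25.2, 23.2 and 20.5 CPM in shNC (log2 fold change -0.81, SE 0.13, edgeR adjusted p = 0.00016). TRIM14, an adaptor at MAVS, had 42.4, 43.9 and 43.4 CPM in shBry replicates 1, 2 and 3 and 69.6, 67.3 and 66.2 CPM in shNC (log2 fold change -0.65, SE 0.08, edgeR adjusted p = 1.9e-05). ZC3HAV1, which encodes the zinc finger antiviral protein, had 32.4, 33.2 and 32.5 CPM in shBry replicates 1, 2 and 3 and 46.9, 46.2 and 57.4 CPM in shNC (log2 fold change -0.62, SE 0.10, edgeR adjusted p = 0.0002). The fold changes of the kinases at the type I receptor had opposite signs, both under the fold limit. JAK1 had 114, 131 and 123 CPM in shBry replicates 1, 2 and 3 and 87.9, 79.2 and 94.2 CPM in shNC, higher in shBry with no overlap (log2 fold change 0.49, SE 0.09, edgeR adjusted p = 0.00038). TYK2 had 128, 129 and 121 CPM in shBry replicates 1, 2 and 3 and 168, 168 and 145 CPM in shNC, lower in shBry with no overlap (log2 fold change -0.35, SE 0.08, edgeR adjusted p = 0.0028).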

How the data were processed

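RNA was sequenced from 3 libraries each of MDA-MB-231 shBry and shNC cells. The authors deposited raw counts, the number of reads on each gene symbol in each library, without normalization. The submitters' processing notes name HISAT2 2.0.4, HTSeq and GRCh38. The annotation and the strand setting are not given in the sources used here. The labels name breast cancer cells, while the deposited design text calls the RNA pericardial. Every pair within a group exceeded sampling noise (chi-square per degree of freedom 4.7 to 15.5).

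Genes were filtered with filterByExpr (minimum count 10), which left 15277 genes. Libraries were scaled with TMM, and all 6 entered edgeR 4.0.16 (glmQLFit and glmQLFTest, R 4.3.3) without covariates. Calls needed a Benjamini-Hochberg adjusted p below 0.05 over all tested genes and a fold change above 1.5. The fold limit is that of the study, and the adjustment of p was added here. Standard errors were the log2 fold change divided by the square root of F. In simulated counts for this comparison (15054 genes), 83 of 98 genes changed 2-fold and 96 of 97 changed 4-fold were recovered, with 9 false calls.

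The genes, the lists and the rule for named genes were chosen with earlier results of these data known. Every called gene and every tested sensor, factor and receptor subunit was given by library. Of the further list, the 3 largest rises and falls among called genes, IFNB1, JAK1 and TYK2 were named, and 1 gene that the rule names is not reported here. The letters of the gamma-activated site, the gene ratios, IL10RB, CXCL10, CXCL11, CMPK2, RSAD2, MB21D1, IFI16, AIM2 and the other interferons of the list were chosen after the values were seen. Gene locations, exon overlaps and shared stretches of 50 bases came from GENCODE 29 (GRCh38), matched by symbol for 42 of 42 genes. Promoters came from RefSeq (GRCh38.p14).

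Alternatives were library totals without TMM, DESeq2 1.42.0, limma-voom (limma 3.58.1), other filters and thresholds, the replicate number as a block, and each library left out in turn.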

Additional observations from a re-analysis of the deposited data

How the results depend on the processing

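The count of 20 interferon genes called (10 higher, 10 lower) lay between 19 and 22 without TMM, with DESeq2, with limma-voom, with other filters, with unadjusted p and with the replicate block, and was 24 without a fold limit. With each library left out in turn it lay between 16 and 23 (7 to 13 higher, 9 or 10 lower), and 14 of the 20 genes were called in all 6 fits. A fold limit of 2 left 6 genes, 3 higher and 3 lower, and of the further list 6, with 6 higher and 0 lower. These 6 further genes include GBP5 and SOCS1, which passed the filter on low counts mainly through shBry, where they are high. With at least 10 counts in every library, 12 genes of the further list were called, 8 higher and 4 lower. Without a fold limit, 27 genes of the further list were called, 20 higher and 7 lower. Over all genes, the 4945 calls became 2297 at a fold limit of 2 and 8139 without one. The 3 further genes called lower became 5 without the expression filter and 5 with the replicate block. With single libraries left out they numbered 3 to 7, with 7 without shBry replicate 2.

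Of genes that were not called, MX1 (0.01) turned to -0.01 without TMM, -0.01 with DESeq2, -0.02 without the expression filter and -0.002 with at least 10 counts in every library. With single libraries left out, the log2 fold change ran from -0.10 to 0.07 for MX1, from -0.24 to 0.09 for TBK1 and from -0.01 to 0.23 for DDX58. IRF7 was called with limma-voom (2.76), without the filter (1.76) and with the block (2.0), and TLR3 without the filter (1.20). IFNAR1 fell to 0.58 and was not called without the filter. The cause was not tested.

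Same-numbered libraries of the groups showed little shared deviation (correlations 0.18, -0.08 and -0.03). shBry replicate 1 correlated best with shNC replicate 1, but the highest correlation was between shBry replicate 2 and shNC replicate 3 (0.23). With 3 libraries per group, these values cannot show whether the replicate numbers mark a pairing. The replicate block gave 21 called interferon genes, and 16 of the further list.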
